A study of Mus musculus with 6 samples.

Results

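Genes for the hormones and signals of the enteroendocrine cells of the gut were followed in the intestine of irradiated mice given free ubiquitin (free Ub), the single, unattached form of the small protein that cells couple to other proteins, or given PBS, its saline carrier. The members were Gcg, Cck, Sct, Gip, Ghrl, Sst, Nts, Pyy, Tac1 and Tph1, chosen by symbol and not by their values. They made up 10 of 19057 genes and 13 of 45281 probes on the arrays, where 7 of them had 1 probe and 3 (Ghrl, Nts and Tac1) had 2. Each gene is read from its brightest probe, that with the highest average of the 6 arrays, and the other probe is given beside it.

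All 6 mice were male C57 animals, C57BL/6J by the study's methods, that received total body radiation of 7 Gy. PBS was given to 3 of them and free Ub to the other 3, and 1 array was made from the intestine of each. The labels put the age at 4 weeks, the sampling at 3.5 days and the injection after the radiation, whereas the study's methods and a figure legend give an older age, a sampling within hours and an injection before it; no comparison here uses these. No intestine without radiation was measured, and the labels do not say which stretch of intestine was taken. The sources do not say whether replicate numbers mark litters or batches, so p-values measure the spread between these 3 and 3 mice.

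Enteroendocrine cells are scattered single cells of the gut lining that release peptide hormones or serotonin when nutrients, bile acids or microbial products reach them. They arise from crypt stem cells through a brief stage marked by Neurog3, and radiation is known to strike the dividing crypt cells. Classically, secretin, cholecystokinin, GIP and ghrelin belong to the stomach and upper small intestine, and the proglucagon peptides, peptide YY and neurotensin to the lower gut. Somatostatin, substance P and serotonin act mostly on neighbouring cells and nerves.

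To show start-site motifs of hormone genes, the 100 bases before a RefSeq transcription start on GRCm38.p6 are given for the 5 members whose window held TATAA or TGACGTCA, 5′ to 3′ on the strand of the gene. The starts are those of the promoter table, and a gene's full span can reach further upstream: the Sst window lies inside the annotated gene and the Sct and Gip windows overlap theirs. Capitals mark matches on either strand to TATAA, the core of the TATA box, to CANNTG, the E-box that basic helix-loop-helix factors such as Neurod1 bind, and to TGACGTCA, the cAMP response element. The windows are chr7:141279134-141279233 for Sct (minus strand), chr11:96024445-96024544 for Gip (plus strand), chr2:62483654-62483753 for Gcg (minus strand), chr11:102107833-102107932 for Pyy (minus strand) and chr16:23890845-23890944 for Sst (minus strand).
Sct: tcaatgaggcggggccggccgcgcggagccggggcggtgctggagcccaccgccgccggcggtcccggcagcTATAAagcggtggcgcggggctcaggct
Gip: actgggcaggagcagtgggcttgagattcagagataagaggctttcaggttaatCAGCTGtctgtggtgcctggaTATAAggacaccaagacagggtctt
Gcg: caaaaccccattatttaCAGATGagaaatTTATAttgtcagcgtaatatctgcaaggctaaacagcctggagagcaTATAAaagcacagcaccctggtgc
Pyy: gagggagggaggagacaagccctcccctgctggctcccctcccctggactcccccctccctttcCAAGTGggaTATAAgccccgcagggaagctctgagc
Sst: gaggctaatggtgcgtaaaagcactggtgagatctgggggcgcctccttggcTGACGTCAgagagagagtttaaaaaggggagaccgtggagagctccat

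TATAA stood in the windows of 4 of the 10 members (Gcg, Sct, Gip and Pyy), with the first base of the match on the gene's strand at 24, 28, 25 and 27 bases before the start; Gcg held a further match on the other strand, 71 bases before it. It stood in 10.65% of all 27025 promoter windows of the same length. CANNTG stood in 5 members (Gcg, Cck, Gip, Pyy and Tac1) against 34.25% of all windows. TGACGTCA stood only in Sst among the members, 48 bases before the start, and in 1.21% of all windows. The matches in these windows did not overlap, and they describe letters only, not bound sites.

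The arrays gave log2 signals with a floor near 0, and a value within 0.01 of the lowest on its array is called at the floor. All 10 members were above the floor on all 6 arrays. Pairs of arrays correlated at 0.9263 to 0.9453 over all probes. Transcripts of the pancreas, an organ that lies against the duodenum, differed far more between arrays than between groups: over 19 measured pancreas markers the mean log2 signal was 9.86 to 13.01 in the PBS mice and 7.80 to 12.6 in the free Ub mice. The mean was lower with free Ub in 17 of the 19 and higher in 2, with a median difference of -0.79. None of the 19 was at the floor on all arrays, and in limma 0 of 19 reached an adjusted or an unadjusted p under 0.05. Reg1 and Zg16, which count in this mean, hardly moved between arrays, at 14.15 to 14.41 and 13.78 to 14.22. By the mean of the 19, PBS replicate 3 held the most and free Ub replicate 3 the least. Islets of the pancreas also make Gcg, Sst and Ppy, so these values are set beside those genes.

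No hormone gene passed the test between free Ub and PBS. In limma 0 of 10 members had an adjusted p under 0.05, where 11 of 19057 genes did, which is 0.0577% of them. Also 0 of 10 had an unadjusted p under 0.05, against 5.74% of all genes in either direction, 2.34% higher and 3.4% lower with free Ub. The groups overlapped in all 10 members, where 10.4% of all genes had groups without overlap. That share includes genes at the floor on some arrays, such as Gpbar1, where differences under 0.01 can part the groups.

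The mean was higher with free Ub in 4 members (Tac1, Tph1, Nts and Gip) and lower in 6 (Ghrl, Pyy, Sst, Sct, Cck and Gcg). The median of the 10 differences was -0.12 on the log2 scale and that of all genes was -0.0022, or -0.0252 over the 11923 genes above the floor on all arrays. Over all genes 8443 had a higher mean and 9474 a lower one, and 1140 did not leave the floor on any array. In tissue RNA of this kind fewer cells of a type and less RNA per cell cannot be told apart.

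**Figure D1:**
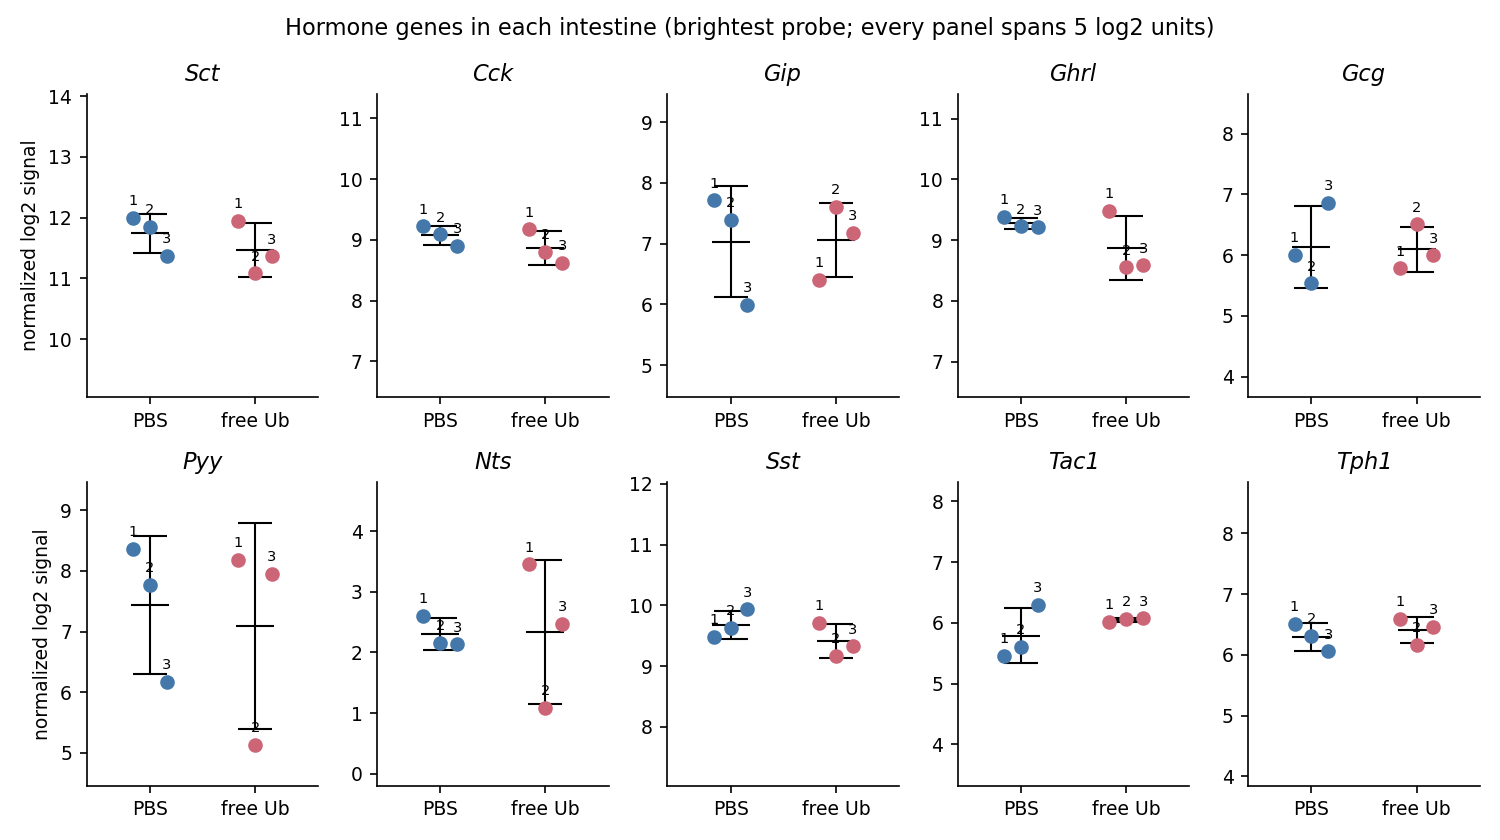
Normalized log2 signal (y axis) of the 10 hormone genes in each of 3 PBS (blue) and 3 free Ub (red) mice; numbers are replicates, and bars give the mean ± SD. The groups overlap in every panel, and Pyy and Gip spread the most among the bright genes, over 3.23 and 1.73 log2 units.

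Among the hormones of the upper gut, Sct (chr7:141278329-141279174), which encodes secretin, the hormone that makes the pancreas release bicarbonate, had log2 signals of 11.996, 11.85 and 11.37 in PBS replicates 1, 2 and 3 and of 11.95, 11.09 and 11.36 in free Ub replicates 1, 2 and 3. The first replicate of each group was high, and the remaining free Ub mice lay below every PBS mouse, replicate 2 clearly and replicate 3 by little. The means were 11.74 ± 0.33 (SD, n = 3) and 11.47 ± 0.44 (SD, n = 3), a difference of -0.27 (SE 0.30, 95% confidence interval -1.07 to 0.52). Its adjusted p in limma was 0.902. The difference was -0.52 without free Ub replicate 1 and -0.08 without free Ub replicate 2.

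Cck (chr9:121489824-121495694) encodes cholecystokinin, which contracts the gallbladder and calls forth pancreatic enzymes. It read 9.22, 9.09 and 8.91 on the log2 scale with PBS and 9.18, 8.81 and 8.63 with free Ub. Both remaining free Ub mice were below all PBS mice, and the first free Ub mouse was among the highest. The difference of -0.20 (SE 0.18) had a confidence interval of -0.67 to 0.27, that is 0.627 to 1.20 times the PBS level, and an adjusted p of 0.872 in limma; it was -0.36 without free Ub replicate 1 and -0.08 without free Ub replicate 3.

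Gip (chr11:96024532-96030831), whose product raises insulin release after a meal, had log2 signals of 7.72, 7.40 and 5.99 with PBS and 6.40, 7.61 and 7.18 with free Ub. Each group held 1 low mouse, PBS replicate 3 and free Ub replicate 1, which were also the mice with the most pancreas transcripts. The lowest and the highest mouse differed by 3.31-fold, while the means of 7.04 ± 0.92 (SD, n = 3) and 7.07 ± 0.61 (SD, n = 3) differed by 0.03 (95% confidence interval -1.56 to 1.62, adjusted p 0.990 in limma). With the pancreas signal as a covariate the difference was -0.11, and without PBS replicate 3 it was -0.49.

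Ghrl (chr6:113716119-113719911) encodes ghrelin, the appetite hormone made mostly in the stomach and also in the duodenum. Signals on the log2 scale were 9.39, 9.23 and 9.21 with PBS and 9.48, 8.56 and 8.59 with free Ub. The PBS mice lay close together, and the free Ub mice split into 1 above all PBS mice and the others well below them. The second probe, at 7.65, 7.96 and 7.80 with PBS and 8.08, 7.26 and 7.14 with free Ub, showed the same split.

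The difference for Ghrl was -0.40 (SE 0.29, 95% confidence interval -1.17 to 0.37), with an unadjusted p of 0.231 and an adjusted p of 0.872 in limma, and -0.31 on the second probe. Without free Ub replicate 1 the difference on the brighter probe was -0.70, with an unadjusted p of 0.00113 and an adjusted p of 0.198 in limma. In that fit 2882 of 45281 probes had an unadjusted p under 0.05. With any other mouse left out the difference was -0.43 to -0.24, with unadjusted p-values of 0.31 to 0.49 in limma. Of 12 measured stomach markers 5 never reached the floor, and the mean log2 signal of the list was 2.61 to 3.60 with PBS and 2.60 to 3.04 with free Ub. Among them Tff2, which encodes a mucosal repair peptide, ran from 7.44 in free Ub replicate 3 to 12.17 in PBS replicate 3. These were also the mice with the least and the most pancreas transcripts. The other markers above the floor throughout (Sult1c2, Gkn3, Pgc and Atp4a) did not share that lowest or that highest mouse. The part of stomach transcripts in the Ghrl values was not tested. Mboat4, the enzyme that attaches the fatty acid ghrelin needs for its activity, had means of 3.12 ± 0.60 (SD, n = 3) and 3.20 ± 0.63 (SD, n = 3).

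Of the hormones classed with the lower gut, Pyy (chr11:102106676-102107832), which encodes peptide YY, a brake on gut movement and appetite, varied most. Its log2 signals were 8.36, 7.77 and 6.17 with PBS and 8.18, 5.13 and 7.95 with free Ub. One mouse of each group was low, PBS replicate 3 and free Ub replicate 2, and the other 4 lay close together. The lowest and the highest mouse differed by 9.37-fold.

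The Pyy means were 7.44 ± 1.13 (SD, n = 3) and 7.09 ± 1.70 (SD, n = 3), a difference of -0.35 (SE 1.11, adjusted p 0.979 in limma). Its 95% confidence interval ran from -3.28 to 2.59, or 0.103 to 6.02 times the PBS level, so a change of several fold either way would not have been detectable. Leaving out the low free Ub mouse turned the difference to 0.63, and leaving out the low PBS mouse gave -0.98.

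Gcg (chr2:62474530-62483653) encodes proglucagon, from which gut cells cut GLP-1 and GLP-2 and islet cells glucagon. Gcg read 6.01, 5.54 and 6.86 with PBS and 5.78, 6.51 and 5.996 with free Ub (log2 signals). The highest mouse was PBS replicate 3 and the next free Ub replicate 2. The difference was -0.04 (SE 0.42, 95% confidence interval -1.14 to 1.07, adjusted p 0.979 in limma).

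The mice highest in Gcg were also the highest in insulin, the product of islet beta cells: Ins2 had log2 signals of 5.44, 3.74 and 8.40 with PBS and 3.53, 6.03 and 2.63 with free Ub. Ppy, the pancreatic polypeptide gene, was at 3.58 in PBS replicate 3 and at the floor on the other 5 arrays, and Iapp, the amyloid peptide of beta cells, was at the floor on all 6. With the pancreas signal as a covariate the Gcg difference was 0.05, and without PBS replicate 3 it was 0.32. How much of the Gcg signal came from islets was not tested.

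Nts (chr10:102481756-102490418), which encodes neurotensin, a peptide released with fat uptake, was the dimmest member. The brighter probe had log2 signals of 2.61, 2.16 and 2.14 with PBS and 3.45, 1.09 and 2.47 with free Ub. The free Ub mice held both the lowest and the highest value. The difference was 0.04 (SE 0.66, 95% confidence interval -1.71 to 1.79, adjusted p 0.989 in limma).

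The second Nts probe was at the floor on 4 arrays, those of all PBS mice and of free Ub replicate 1, and read 3.78 and 2.66 in free Ub replicates 2 and 3. It thus ordered the mice otherwise than the first probe, which was lowest in free Ub replicate 2. Its unadjusted p in limma was 0.103. Both probes were too dim to follow the gene mouse by mouse.

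**Figure D2:**
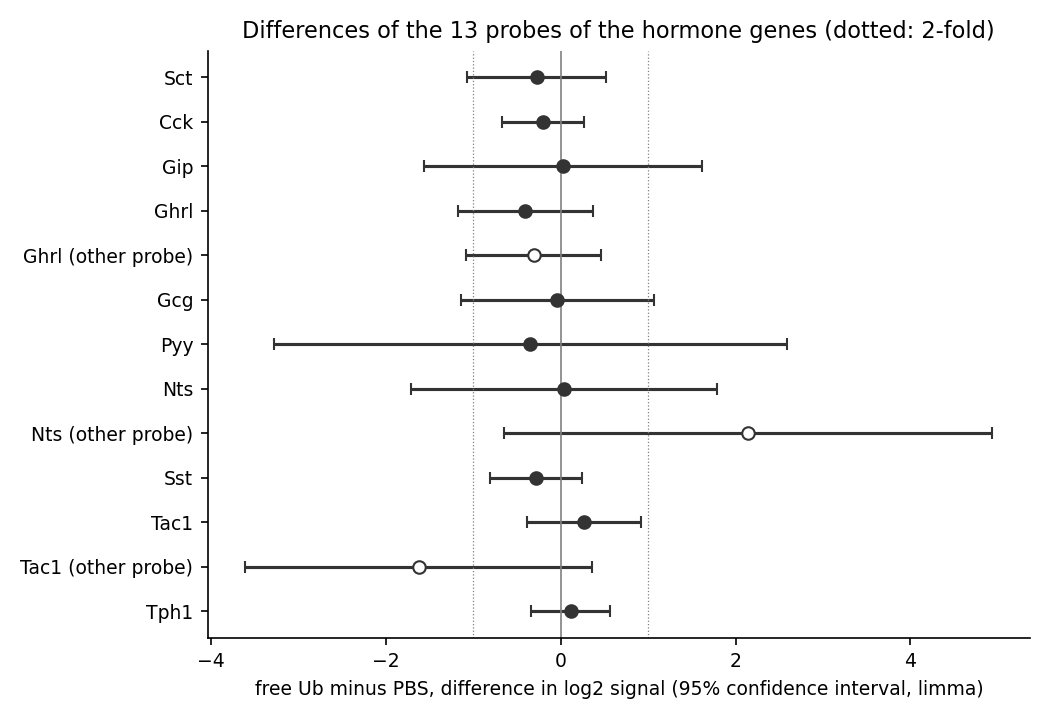
Difference in log2 signal, free Ub minus PBS (x axis), for the 13 probes of the 10 hormone genes; filled points are the brightest probe of a gene, open points its other probe, bars the 95% confidence interval from limma, and dotted lines a 2-fold difference. Every interval spans 0, and those of the brightest probes of Cck, Sst, Tac1 and Tph1 lie within 2-fold either way.

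Among the signals that act on neighbouring cells and nerves, Sst (chr16:23889573-23891342) encodes somatostatin, which holds back the release of most other gut hormones. Its log2 signals were 9.48, 9.63 and 9.94 with PBS and 9.72, 9.17 and 9.33 with free Ub. PBS replicate 3 was highest, as in Gcg and Ins2, and free Ub replicates 2 and 3 were below every PBS mouse. Free Ub replicate 2, the next highest mouse in Gcg and Ins2, was the lowest in Sst. The difference was -0.28 (SE 0.20, 95% confidence interval -0.80 to 0.25, adjusted p 0.872 in limma); it was -0.23 with the pancreas signal as a covariate and -0.15 without PBS replicate 3.

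Tac1 (chr6:7555061-7562978) encodes substance P, made by serotonin-storing gut cells and by enteric neurons. Its log2 signals were 5.46, 5.61 and 6.30 with PBS and 6.02, 6.07 and 6.08 with free Ub. The free Ub mice were almost alike, between the second and the highest PBS mouse. The difference was 0.27 (SE 0.25, 95% confidence interval -0.38 to 0.92, unadjusted p 0.333 and adjusted p 0.872 in limma).

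Without PBS replicate 3 the Tac1 difference was 0.52, with an unadjusted p of 0.00178 and an adjusted p of 0.187 in limma. In that fit 3381 of 45281 probes had an unadjusted p under 0.05. With any other mouse left out the difference was 0.10 to 0.28, with unadjusted p-values of 0.42 to 0.70 in limma. The second Tac1 probe went the other way, at 2.42, 1.78 and 2.86 with PBS and at the floor, the floor and 2.20 with free Ub, with an unadjusted p of 0.0881. Markers of enteric neurons, of which 10 of 14 measured ones were above the floor on all arrays, had a mean log2 signal of 2.90 to 3.38 with PBS and 2.998 to 3.25 with free Ub, and 0 of them had an unadjusted p under 0.05 in limma.

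Tph1 (chr7:46644641-46672537) encodes the enzyme that sets the pace of serotonin synthesis in gut cells and mast cells. Its log2 signals were 6.51, 6.32 and 6.06 with PBS and 6.60, 6.17 and 6.46 with free Ub. The groups lay across each other, and the difference of 0.11 (SE 0.17) had a confidence interval of -0.34 to 0.57, that is 0.789 to 1.48 times the PBS level (adjusted p 0.979 in limma). The mast cell markers had a mean log2 signal of 1.74 to 2.39 with PBS and 1.57 to 2.43 with free Ub. Of the 12 measured, 4 had a higher and 7 a lower mean with free Ub, and Mcpt2 was at the floor on all arrays. Only 5 of the 12 were above the floor on all arrays. Cma1, a mast cell protease, was the 1 of 12 with an unadjusted p under 0.05 in limma, against 5.74% of all genes. Its means were 2.80 ± 0.55 and 1.34 ± 0.70 (SD, n = 3 each).

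By the exact permutation test over mice, two-sided, whose smallest p with 3 against 3 is 0.1, the members had p-values from 0.3 (Cck and Sst) to 1.0 (Gip and Nts). The precision set what could be seen: the confidence interval lay within 2-fold either way for Cck, Sst, Tac1 and Tph1 and reached beyond it for the other 6.

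The lowest and the highest mouse differed from member to member. Free Ub replicate 2 was the lowest mouse in 5 members (Sct, Ghrl, Sst, Nts and Pyy), and PBS replicate 1 was the highest in 4 (Cck, Sct, Gip and Pyy). PBS replicate 3 was highest in Gcg, Sst and Tac1 and lowest in Gip and Tph1, and free Ub replicate 1 was highest in Ghrl, Nts and Tph1. Replicate 1 of both groups held the highest places in Sct, Cck, Ghrl, Pyy, Nts and Tph1, but not in Gip, Gcg, Sst or Tac1. In Sct, Cck and Ghrl PBS replicates 2 and 3 followed in that order, and free Ub replicates 2 and 3 came last; Gip, also classed with the upper gut, went otherwise, with PBS replicate 3 and free Ub replicate 1 lowest.

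With each gene centred on its own mean, the mean over the 10 members was 0.25, 0.04 and -0.13 in PBS replicates 1, 2 and 3 and 0.25, -0.40 and -0.02 in free Ub replicates 1, 2 and 3. The highest mice of both groups were level, and the lowest was a free Ub mouse. The median over the members was 0.27, 0.10 and -0.13 in PBS replicates 1, 2 and 3. In free Ub replicates 1, 2 and 3 it was 0.23, -0.28 and -0.005. Pyy and Nts, which ranged over 3.23 and 2.36 log2 units, weigh most in the mean, although Nts was too dim to follow mouse by mouse. The 5 genes most like this mean over the 6 arrays, of 11913 compared, were Ndufab1 (r = 0.9965), B3glct (0.988), Map11 (0.9847), Atp6v0b (0.9822) and Cdh23 (0.9816); with 6 arrays and that many genes, such values describe these arrays only.

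**Figure D3:**
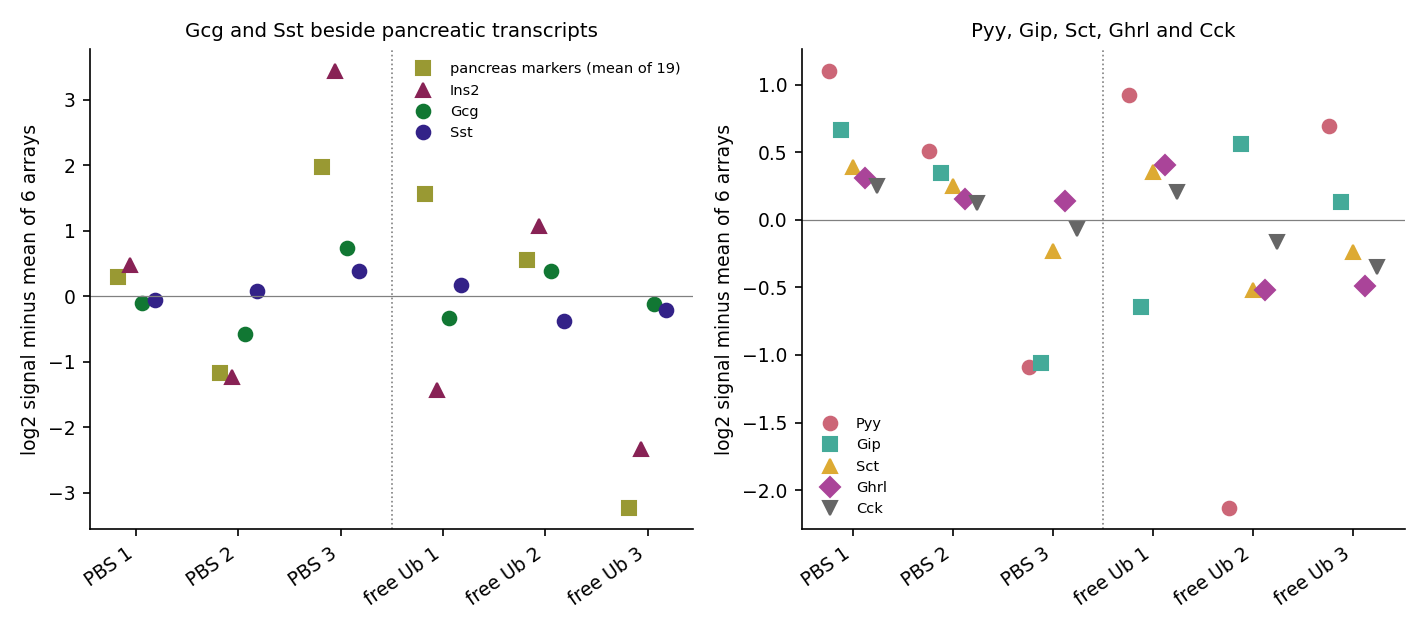
Log2 signal minus the gene's mean over 6 arrays (y axis) on each array (x axis); the left panel sets Gcg and Sst beside Ins2 and the mean of 19 pancreas markers, and the right panel shows Pyy, Gip, Sct, Ghrl and Cck. Gcg, Sst and Ins2 peak in PBS replicate 3, while free Ub replicate 2 is next highest in Gcg and Ins2 and lowest in Sst. Pyy is low in PBS replicate 3 and free Ub replicate 2.

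Among the markers of the cells themselves, Chga and Chgb, the chromogranins that pack hormone granules, were above the floor in every mouse. Chga had log2 signals of 6.86, 6.89 and 7.13 with PBS and 6.81, 6.81 and 6.43 with free Ub, so its groups did not overlap, but the difference of -0.28 had an unadjusted p of 0.121 and an adjusted p of 0.872 in limma. Chgb, at 9.23 ± 0.061 (SD, n = 3) and 9.34 ± 0.25 (SD, n = 3), differed by 0.11. Scg3 and Pcsk1, a granule protein and the convertase that cuts prohormones, were dim, with 1 and 4 arrays at the floor.

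Of 27 measured genes for granules and prohormone processing, 18 had a higher and 9 a lower mean with free Ub, with a median difference of 0.07. None passed the adjusted test, and 3 of the 27 had an unadjusted p under 0.05 in limma, against 5.74% of all genes: Syp, Vamp2 and Slc18a1. All 3 were lower with free Ub, where 3.4% of all genes were called lower. Syp (synaptophysin, a vesicle membrane protein) had log2 signals of 5.84, 5.21 and 4.93 with PBS and 4.71, 4.66 and 4.54 with free Ub, all free Ub mice below all PBS mice, with an unadjusted p of 0.0484 and an adjusted p of 0.872. Vamp2, a protein of vesicle fusion, had means of 7.35 ± 0.095 and 7.13 ± 0.064 (SD, n = 3 each), with an unadjusted p of 0.0246 and an adjusted p of 0.825.

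Slc18a1, which loads monoamines such as serotonin into vesicles, read 4.57, 2.83 and 3.23 with PBS and was at the floor in all free Ub mice, with an unadjusted p of 0.00121 and an adjusted p of 0.299 in limma. Its fold is not measured, since 1 group has no reading above the floor. Other steps of the serotonin route overlapped between the groups: Ddc, which makes serotonin from the product of Tph1, had means of 9.77 and 9.81, and Slc6a4, which takes serotonin back up, of 8.12 and 8.08. Cpe, which trims the cut peptides, had means of 7.98 and 8.34, and Dpp4, which breaks down GLP-1 and GIP, of 11.56 and 11.58.

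Of 21 measured enteroendocrine transcription factors, 8 had a higher and 13 a lower mean with free Ub, with a median difference of -0.06, and none passed the adjusted test. Neurog3, the switch that commits crypt cells to this lineage, had log2 signals of 5.61, 5.25 and 5.49 with PBS and 4.62, 5.40 and 5.27 with free Ub, and only free Ub replicate 1 lay clearly below the rest (difference -0.35, unadjusted p 0.219 in limma). Neurod1, which acts after Neurog3, had 4.58, 3.27 and 3.14 with PBS and 3.44, 3.16 and 1.85 with free Ub, a difference of -0.85 with an unadjusted p of 0.241.

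Sox4, which is active in early precursors, had means of 6.36 ± 0.15 and 5.82 ± 0.27 (SD, n = 3 each), without overlap, and an unadjusted p of 0.0287 (adjusted 0.861) in limma. Neurod2 was the other of the 21 factors with an unadjusted p under 0.05 (0.0112, adjusted 0.664 in limma), against 5.74% of all genes. It was at the floor in all free Ub mice. Foxa1 was higher in all free Ub mice, at 5.94 ± 0.12 and 6.22 ± 0.16 (SD, n = 3 each), with an unadjusted p of 0.058. Insm1, Isl1 and Pdx1 overlapped between the groups, with differences of -0.01, -0.06 and 0.20.

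Of 20 measured nutrient and chemical sensors, 11 had a higher and 7 a lower mean with free Ub, 2 (Casr and Kcnj11) stayed at the floor throughout, and 0 had an unadjusted p under 0.05 in limma. Slc5a1, the glucose transporter whose work sets off GIP and GLP-1 release, differed by 0.14, and the fatty acid receptors Ffar2, Ffar3 and Ffar4 by -0.39, 0.34 and 0.05. Among 32 genes for receptors of the hormones and serotonin uptake, 20 had a higher and 11 a lower mean, and 1 (Npy4r) stayed at the floor. Htr7, a serotonin receptor, was the 1 of 32 with an unadjusted p under 0.05 (0.0139, adjusted 0.704 in limma), against 5.74% of all genes. It was at the floor in 2 PBS mice.

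Tacr1, the receptor of substance P, had means of 3.42 ± 0.75 and 4.49 ± 0.49 (SD, n = 3 each) and an unadjusted p of 0.084 in limma. Glp2r, the receptor of GLP-2, a growth signal for the gut lining, had means of 6.38 in both groups. Of 17 other gut peptides 6 had a higher and 9 a lower mean, and 2 stayed at the floor. Guca2a encodes guanylin, a regulator of salt and water release. It was the 1 of 17 with an unadjusted p under 0.05 (0.0405, adjusted 0.872 in limma), against 5.74% of all genes. Its means were 10.96 ± 0.15 and 10.71 ± 0.029 (SD, n = 3 each). Vip, Gal and Npy, peptides mostly of enteric neurons, overlapped between the groups and differed by -0.55, -0.48 and -0.60.

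**Figure D4:**
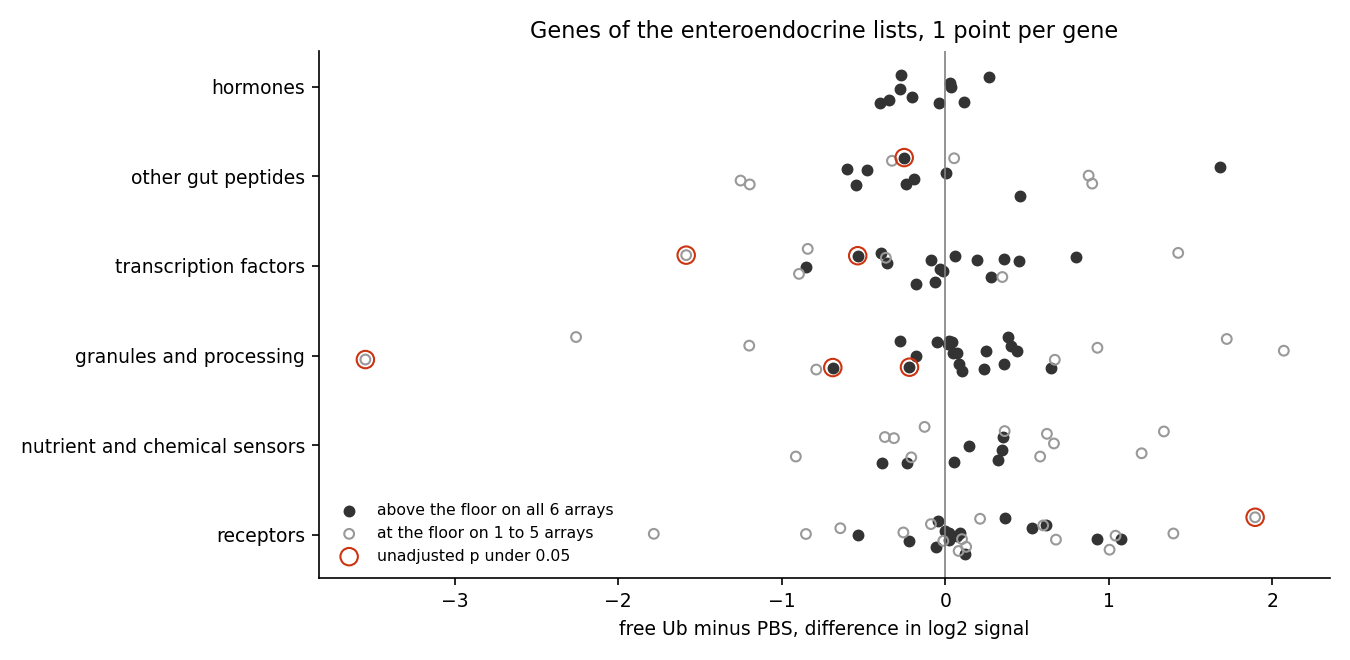
Difference in log2 signal, free Ub minus PBS (x axis), of each gene in 6 lists (y axis); open points had 1 to 5 arrays at the floor, genes at the floor on all arrays are left out, and red rings mark an unadjusted p under 0.05 in limma. The 10 hormones lie between -0.40 and 0.27, and the wider points of the other lists are mostly open.

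The 10 markers of the upper small intestine had a mean log2 signal of 7.99 to 8.65 with PBS and 8.44 to 8.74 with free Ub, and the 10 of the lower small intestine of 6.44 to 6.59 and 6.28 to 6.44. Both lists held members at the floor: Fabp6 and Slc10a2 of the lower list on all 6 arrays, with its other 8 above the floor throughout, and Fabp1 of the upper list on 4 arrays. A signal at the floor does not show absence, and signals of different probes cannot be ranked, so the stretch of intestine is not settled by them. The mean over the epithelial markers varied little between mice, at 10.13 to 10.47 with PBS and 10.28 to 10.36 with free Ub. Single markers ranged more, such as Alpi and Muc2 over 0.88 and 0.77 log2 units. Of the 15 epithelial genes 1 had an unadjusted p under 0.05 in limma, against 5.74% of all genes. This was Cdx2, the intestinal identity factor (0.018, adjusted 0.75 in limma), at 9.83 ± 0.033 and 9.55 ± 0.13 (SD, n = 3 each). Smooth muscle markers had a mean of 6.43 to 7.77 with PBS, lowest in PBS replicate 3, and 7.29 to 7.74 with free Ub, and their part in the hormone values was not tested.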

How the data were processed

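Intestinal RNA of 6 mice was measured on Illumina MouseWG-6 v2 BeadChips, 1 array per mouse. The authors normalized the signals by cubic spline in GenomeStudio (version not given in the sources used here). The deposited values are on a log2 scale; the base is read from the highest value, 14.487, and the log transform, background handling and floor are not described. They were used without further scaling, and no detection p-values came with them, so the number of arrays and the brightness of a probe limit precision.

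Every one of 45281 probes was fitted in R 4.3.3 with limma 3.58.1 (lmFit, eBayes; free Ub minus PBS, two-sided), and p-values were adjusted by Benjamini-Hochberg over the whole table. The platform annotation gave 34885 probes 1 gene symbol, 18 several and 10378 none; 3 probes that match a member only through an alias of another gene were not used. A gene was read from its brightest probe. The fit was tested on simulated normal values without a floor, with changes set only in bright probes. That test therefore does not cover dim probes or those at the floor. Named genes beside the members were the 6 with the smallest p and the 4 brightest of each list, of which some are given; Scg3, Pcsk1, Neurod1, Insm1, Isl1, Mboat4, Iapp, Npy, Fabp6 and Slc10a2 among others were added for their roles. The members, lists and tests were chosen with earlier results of these data known. Promoters came from a RefSeq table, which held all 10 members, and coordinates are GRCm38.p6. Alternatives changed the scaling, filter, variance model, probe rule, replicate block and samples.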

Additional observations from a re-analysis of the deposited data

How the results depend on the processing

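The count of hormone genes at an adjusted p under 0.05 was 0 under all 17 alternatives, which were limma fits or Student's tests. The deposited arrays already shared their upper quartile (5.317) and highest value (14.487), with medians of 2.5505 to 2.5507. Quantile normalization and median centring could therefore hardly change a value, and their outcome adds nothing to the count. Cck, Sct, Ghrl and Sst kept a lower mean with free Ub in all 17 alternatives, but most of these leave the difference of means unchanged or nearly so. Only array weights, the pancreas covariate, leaving out 1 mouse and, for Ghrl, averaging its probes weigh the values otherwise. The count at an unadjusted p under 0.05, 0 as reported, was 1 when the probes of a gene were averaged (Nts, p 0.00867) and 0 to 1 when 1 mouse was left out (Tac1 without PBS replicate 3, Ghrl without free Ub replicate 1). The median difference was -0.395 to -7.2e-05 with 1 mouse left out, lowest without free Ub replicate 1. Directions that turned were those of Pyy (0.23) and Tac1 (-0.0085) with array weights, Tac1 (-0.68) with the mean of its probes, and Gcg (0.051) and Gip (-0.11) with the pancreas signal as a covariate, which was chosen after seeing the data. With 1 mouse left out, the difference ran from -0.34 to 0.32 for Gcg, -0.49 to 0.37 for Gip, -0.52 to 0.66 for Nts, -0.98 to 0.63 for Pyy and -0.0034 to 0.23 for Tph1. It kept its sign but varied in size for Sct (-0.52 to -0.08), Cck (-0.36 to -0.08), Ghrl (-0.70 to -0.24), Sst (-0.43 to -0.15) and Tac1 (0.10 to 0.52). The cause was not tested. Nts could not be fitted with values under 4 raised to 4.

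Over all probes 24 passed the adjusted test; the count was 0 with values under 4 raised to 4, with only the brighter probes, with the replicate block, with the paired Student's test and with trend and robust variances, 11 with the unpaired Student's test, 59 with array weights, 6 with the pancreas covariate and 75 to 112 with 1 mouse left out. At an unadjusted p under 0.05 the first of those with 0 had 1167 of 18361 probes and the next 1168 of 22640. The replicate block, the paired Student's test and trend and robust variances had 2446, 1559 and 1736 of 45281, against 2336 of 45281 in the reported limma fit. Same-numbered mice did not deviate together (r = -0.003, 0.02 and -0.091), so the replicate block, under which 0 hormone genes passed, pairs by number alone. Dim probes such as those of Nts limit what the arrays can show.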
